A study of Mus musculus with 96 samples.

Results

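The genes described here are Fga, Fgb and Fgg, which encode the 3 chains of fibrinogen, in kidney and liver of mice. They were chosen by name, with earlier results on their levels in these libraries known, and are 3 of the 56941 genes in the count table, where their identifiers are ENSMUSG00000028001, ENSMUSG00000033831 and ENSMUSG00000033860. The rule also asked for their level per library, in counts per 1000000 (CPM), and for the balance of the chains in kidney against liver. The levels and the balance are therefore given as a description, without a test.

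The study profiled RNA of 7 tissues from 2 month-old mice: kidney, small intestine, heart, brain, skeletal muscle, spleen and liver. The labels name the reprogrammable strains 4Fj, 4FsB, 4Fk and 4FsA, made for switching on reprogramming factors in the animal, and WT mice as their control. Kidney and liver each had 15 libraries, 3 from each of the 5 genotypes. Small intestine, brain and skeletal muscle had 15 libraries each, also with 3 from each genotype by the labels. Heart had 14, with 2 from WT and 3 from each reprogrammable strain. Spleen had 7, with 3 from WT, 1 from 4Fj, 3 from 4FsA and none from 4FsB or 4Fk. The labels give neither the alleles of each strain nor whether an inducer was given. The columns of the table carry a tissue and a running number but no genotype, so nothing is compared by strain, and a library is called here by its tissue and that number. Whether libraries of different tissues came from the same animal is not given either.

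Fibrinogen is a soluble plasma protein made of paired alpha, beta and gamma chains, which Fga, Fgb and Fgg encode. The chains are joined by disulphide bonds in the endoplasmic reticulum before secretion, thrombin then cuts short peptides from the alpha and beta chains, and the resulting fibrin polymerises into the mesh of a clot. Hepatocytes are the main source, and the 3 genes lie side by side and are induced together in the acute phase response, in which interleukin-6 acts through STAT3 and C/EBP factors. Transcripts of the chains have also been described in injured kidney epithelium.

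The 250 bases before each start site are shown because the 3 neighbouring genes differed in how much they were expressed in kidney. They are RefSeq sequences on the build GRCm38.p6, written 5′ to 3′ on the strand of the gene, and all 3 genes matched an entry by symbol. Capitals mark matches to the motifs searched on both strands: CTGGGAA (interleukin-6 response), TTCNNNGAA (STAT), TTNNGNAAT (C/EBP) and TATAAA.
Fgg (chr3:83007474-83007723, plus strand): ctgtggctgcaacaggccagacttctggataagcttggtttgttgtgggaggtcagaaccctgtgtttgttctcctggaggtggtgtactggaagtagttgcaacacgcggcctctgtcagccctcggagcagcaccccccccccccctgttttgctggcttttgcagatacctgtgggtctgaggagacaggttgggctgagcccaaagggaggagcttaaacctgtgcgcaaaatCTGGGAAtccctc
Fga (chr3:83025903-83026152, plus strand): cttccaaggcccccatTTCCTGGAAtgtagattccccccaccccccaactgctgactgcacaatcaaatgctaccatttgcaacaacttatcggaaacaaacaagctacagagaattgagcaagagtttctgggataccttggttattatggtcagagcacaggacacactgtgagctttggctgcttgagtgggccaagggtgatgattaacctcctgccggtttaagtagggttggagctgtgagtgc
Fgb (chr3:83049864-83050113, minus strand): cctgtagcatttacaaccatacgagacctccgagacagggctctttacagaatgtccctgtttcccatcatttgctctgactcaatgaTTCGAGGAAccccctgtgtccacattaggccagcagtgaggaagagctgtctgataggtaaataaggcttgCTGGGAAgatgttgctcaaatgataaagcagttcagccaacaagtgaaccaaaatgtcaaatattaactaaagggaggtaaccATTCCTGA
The Fgg window held CTGGGAA, starting 13 bases before the start site, and no other of the 4 motifs. The Fga window held the STAT motif as TTCCTGGAA, 234 bases before the start. The Fgb window held 3 of the 4 motifs. These were the STAT motif as TTCGAGGAA, 162 bases before the start, CTGGGAA at 91 bases, and the C/EBP motif on the other strand at 8 bases, whose last base lies past the printed window. TATAAA was in none of the windows. Over the full windows of 300 bases, which reach 50 bases past the start, CTGGGAA was in 11.1% of 32851 promoters, TTCNNNGAA in 8.30%, TTNNGNAAT in 11.5% and TATAAA in 13.6%. The matches describe letters only and do not show that a factor binds there.

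Totals per library were 6624474 to 12116683 estimated counts in kidney and 8211684 to 14176807 in liver. Mitochondrially encoded genes took 10.1% to 45.5% of the count in kidney libraries and 3.75% to 33.0% in liver libraries. The tissue labels fitted the markers. In kidney the proximal tubule gene Kap ran from 2873 to 33300 CPM and the loop of Henle gene Umod from 638 to 6705 CPM, against at most 37.9 and 1.64 CPM in liver. Ahsg, the hepatocyte gene for fetuin-A, was at most 3.91 CPM in kidney and at least 2755 CPM in liver. No 2 libraries of either tissue were identical.

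All 3 chain genes were read in kidney, at levels that differed widely between libraries. The sum of Fga, Fgb and Fgg ran from 9.61 CPM in kidney library 15 to 8221 CPM in kidney library 12, with a median of 88.8 CPM. In liver it ran from 3787 CPM in library 13 to 42971 CPM in library 12, with a median of 12240 CPM. The highest and lowest kidney libraries stood 855.7-fold apart, and the highest and lowest liver libraries 11.3-fold apart. Without the highest library of each tissue, the upper limits were 4163 CPM in kidney and 29392 CPM in liver. In bulk tissue a change in the number of cells of a type and a change in RNA per cell cannot be told apart.

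Fga, the gene of the alpha chain, was at 43.6, 37.5, 30.4, 14.9, 254.7, 92.3, 77.3, 793.9, 14.9, 716.1, 1994, 3576, 11.99, 10.6 and 5.51 CPM in kidney libraries 1 to 15. In liver it was at 697 CPM at the lowest, 4366 CPM at the median and 16296 CPM at the highest. Kidney libraries 8, 10, 11 and 12 were above the lowest liver library, so the tissues overlapped. The kidney median was 0.999% of the liver median.

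Fgg, the gene of the gamma chain, was at 29.7, 23.9, 12.7, 4.20, 141.8, 28.7, 33.0, 800.6, 5.86, 470.4, 1883, 3676, 4.52, 2.97 and 3.56 CPM in kidney libraries 1 to 15. In liver it was at 974 CPM at the lowest, 3522 CPM at the median and 12774 CPM at the highest. Only kidney libraries 11 and 12 exceeded the lowest liver library, and library 12 also exceeded the liver median. The kidney median was 0.816% of the liver median.

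Fgb, the gene of the beta chain, was at 15.4, 4.35, 2.53, 0, 6.01, 0.509, 2.19, 156.6, 0, 18.6, 285.6, 969.7, 1.11, 0.350 and 0.540 CPM in kidney libraries 1 to 15. In liver it was at 2116 CPM at the lowest, 4781 CPM at the median and 13901 CPM at the highest. No kidney library reached the lowest liver library, so for this chain the tissues did not overlap. The share of all genes without overlap is not given here, so this describes Fgb beside Fga and Fgg only. The kidney median was 0.0529% of the liver median, and the highest kidney library was at 20.3% of it. Kidney libraries 4 and 9 had no Fgb count, which allows up to 0.360 and 0.351 CPM at 3 counts. Such limits and all intervals below cover counting error only, because the libraries are not described as carrying molecular identifiers. The liver median exceeded the kidney median 1892-fold for Fgb, 122.5-fold for Fgg and 100.1-fold for Fga.

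**Figure D1:**
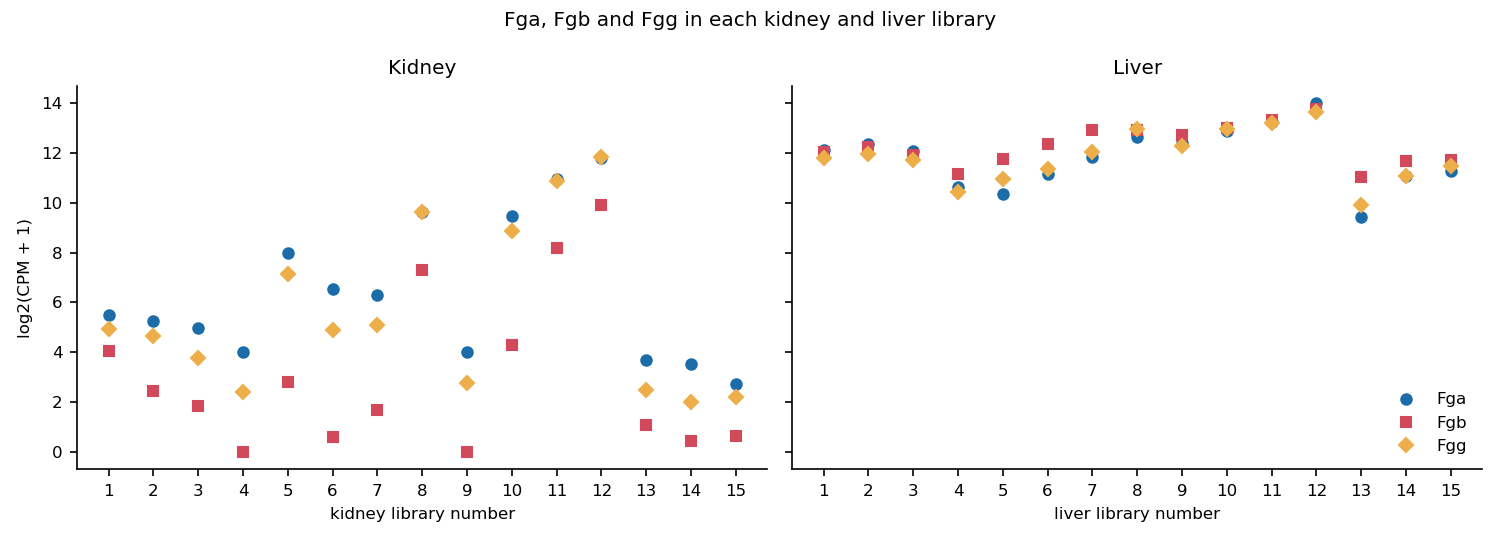
Level of each chain gene in the kidney libraries (left) and the liver libraries (right) as log2(CPM + 1), with 1 symbol per gene and library. In kidney the Fgb symbols lie below those of Fga and Fgg in all 15 libraries, while in liver the 3 symbols lie close together.

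The share of each gene in the summed count of the 3 was then set between the tissues. In kidney Fgb held 0% to 17.3% of the sum, with a median of 5.53%, and in liver 32.3% to 55.9%, with a median of 38.8%. All 15 kidney libraries were below the lowest liver library. Fga held a median of 63.3% in kidney (43.5% to 78.0%) and 30.6% in liver (18.4% to 37.9%). Fgg held a median of 33.5% in kidney (21.4% to 45.7%) and 29.0% in liver (25.7% to 36.4%), so its share overlapped between the tissues. Kidney thus carried mostly alpha and gamma chain transcripts, and liver carried the 3 chains in closer amounts.

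Levels of different genes can be compared only per length. Divided by the coding length of the first GENCODE transcript of each gene, which is 1671 bases for Fga, 1443 for Fgb and 1308 for Fgg, the Fgb share was 0% to 17.9% in kidney and 33.0% to 55.8% in liver. On that scale Fgb was the lowest of the 3 in 15 of 15 kidney libraries and the highest of the 3 in 11 of 15 liver libraries. The Fgb transcript has a long end outside its coding part, with 3810 bases in all, against 2083 for Fga and 1695 for Fgg. Divided by transcript length, the median Fgb share was 2.90% in kidney and 23.6% in liver, and Fgb became the lowest of the 3 in 11 of 15 liver libraries. The lower Fgb share in kidney held on each of these scales, whereas the rank of Fgb within liver depended on the length used.

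**Figure D2:**
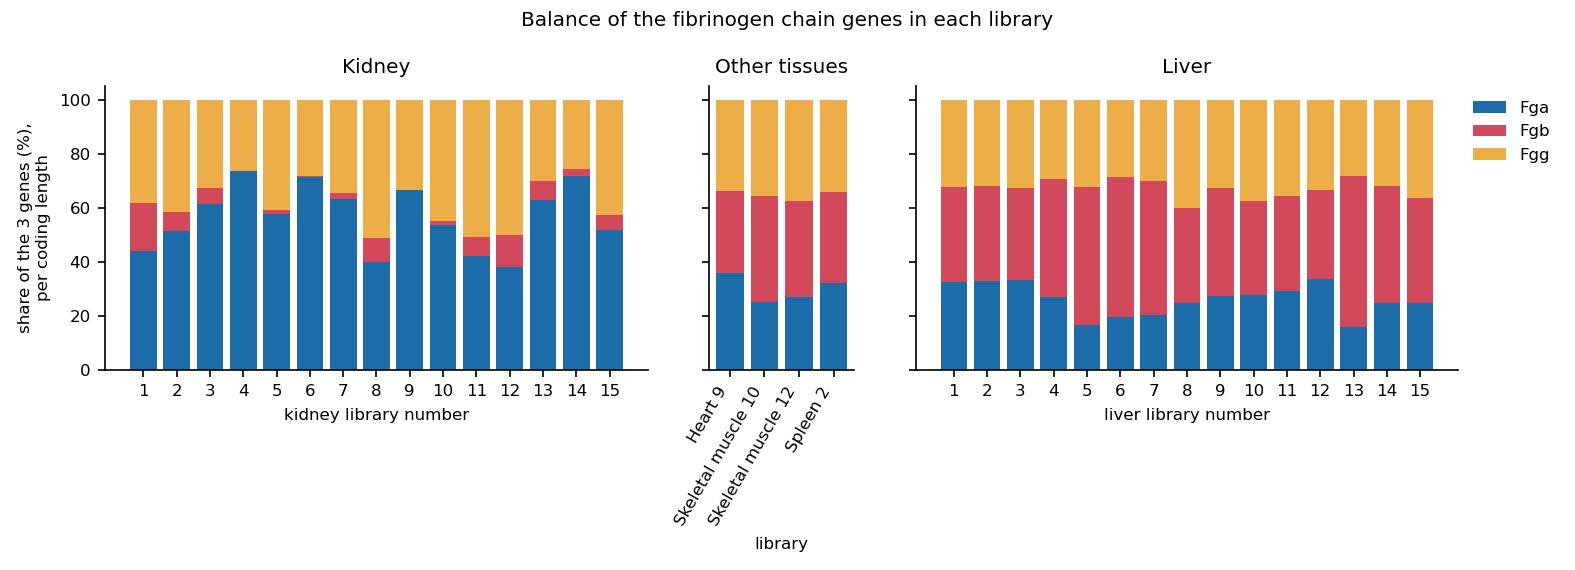
Share of Fga, Fgb and Fgg in their sum, per coding length, as stacked bars adding to 100%, for each kidney library (left), the 4 libraries of other tissues with 300 or more summed counts (middle) and each liver library (right). The Fgb part is at most 17.9% in kidney and at least 33.0% in liver.

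Within kidney the small Fgb share was not limited to libraries with few counts. In kidney library 12, which had the highest sum, Fgb was 11.8% of the 3 (95% exact Clopper-Pearson interval 11.6% to 12.01%). In library 10 it was 1.55% (1.33% to 1.79%) beside 716.1 CPM of Fga. In library 6 it was 0.418% (0.136% to 0.974%), with 5 counts of Fgb. Libraries 4 and 9, with 159 and 177 counts over the 3 genes, had none, with upper limits of 2.29% and 2.06% by the same interval. The intervals of libraries 10 and 12 did not overlap, with Fga and Fgg abundant in both. They treat each count as independent, so this is a description and not a test.

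Kidney library 1 had the highest Fgb share, 17.3% (14.4% to 20.7%), at a sum of 88.8 CPM, and the next was 11.8%. It also had the lowest total count of all 96 libraries and the highest summed leukocyte markers of the kidney libraries, 272.5 CPM against 168.3 CPM in the next. Its Serpina1a, an alpha-1 antitrypsin gene, was at 2.05 CPM, while the other kidney libraries had 41.0 to 499 CPM. The part of these differences in the Fgb share was not tested.

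The ratio of Fga to Fgg counts ran from 0.973 to 3.56 in kidney, with a median of 1.80, and from 0.656 to 1.31 in liver, with a median of 0.983. Fga counts exceeded Fgg counts in 13 of 15 kidney libraries and in 7 of 15 liver libraries. Kidney libraries 8, 11 and 12 had ratios of 0.992, 1.06 and 0.973, at sums of 1751, 4163 and 8221 CPM. The ratio was over 2 in 7 kidney libraries, none of which had a sum above 121.5 CPM. In kidney libraries 8, 11 and 12 Fga and Fgg were thus near equal in counts, but kidney library 10, at 1205 CPM, had a ratio of 1.52. Per coding length, Fga held 39.7%, 42.2% and 38.1% of the sum in libraries 8, 11 and 12, below Fgg at 51.2%, 50.8% and 49.98%. Fgb was the lowest chain in these libraries, at 8.94%, 6.86% and 11.8% of the summed count. In library 10 it was also the lowest, at 1.55%.

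In liver the balance also differed between libraries, only in part along with the level. Liver library 13 had the lowest sum, 3787 CPM, and the highest Fgb share, 55.9%, with Fga at 18.4%. Liver library 12 had the highest sum, 42971 CPM, and the lowest Fgb share, 32.3%, with Fga at 37.9%. Liver libraries 1, 2 and 3, with middling sums of 12240, 13948 and 11593 CPM, had Fgb shares of 34.4%, 34.3% and 33.3%, close to that of library 12. Liver library 7 had a higher sum than these, 15577 CPM, and an Fgb share of 49.5%. The mitochondrially encoded share was 33.0% in library 13 and 5.28% in library 12. Over the 15 liver libraries the mean log2(CPM + 1) of the 3 genes, called the fibrinogen score below, had a Pearson r of -0.78 with the mitochondrially encoded share. In kidney that r was -0.52. Its part in the levels was not tested.

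Outside kidney and liver the chains were near 0 in most libraries. The median sum was 0.0559 CPM in small intestine, 0.194 in heart, 0 in brain, 0.276 in skeletal muscle and 1.06 in spleen. A count of 3, the most that a count of 0 allows, is 0.168 to 0.413 CPM in these libraries, and only the spleen median was above that range. The highest sum was 3.33 CPM in small intestine and 1.73 CPM in brain. All kidney libraries, by contrast, were at 9.61 CPM or more.

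**Figure D3:**
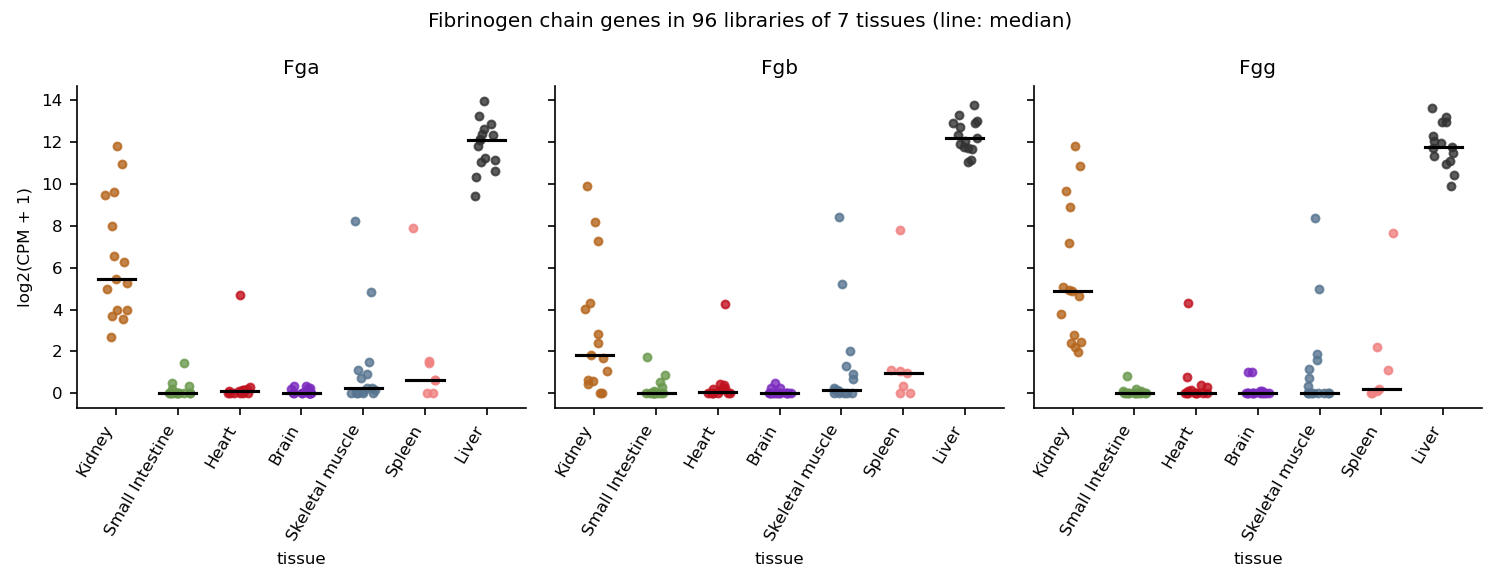
Fga, Fgb and Fgg as log2(CPM + 1) in all 96 libraries, with 1 point per library and the tissue median as a line. Kidney lies between the tissues near 0 and liver, with its Fgb points lower than its Fga and Fgg points, and single libraries of heart, skeletal muscle and spleen stand out.

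In 4 libraries of other tissues the chains were well above 0, and there all 3 were present in similar amounts. Spleen library 2 had 241.5, 221.2 and 201.1 CPM of Fga, Fgb and Fgg. Skeletal muscle library 12 had 302.1, 341.1 and 329.2 CPM and skeletal muscle library 10 had 27.5, 36.9 and 30.6 CPM. Heart library 9 had 25.3, 18.3 and 18.7 CPM. The Fgb share of the summed count was 33.3% (95% interval 32.1% to 34.5%), 35.1% (34.1% to 36.0%), 38.8% (36.1% to 41.6%) and 29.4% (25.7% to 33.3%) in these 4 libraries, in that order. The first 3 lie within the liver range of 32.3% to 55.9%, and heart library 9 lies just under it with an interval that reaches into it. All 4 lie above the highest kidney library.

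The same 4 libraries carried hepatocyte transcripts. Albumin mRNA (Alb) was at 3324 CPM in spleen library 2, 2301 CPM in skeletal muscle library 12, 215.4 CPM in skeletal muscle library 10 and 151.7 CPM in heart library 9. The 18 hepatocyte markers summed to 6525 CPM in spleen library 2, against at most 78.3 CPM in the other spleen libraries. They summed to 4007 and 394 CPM in skeletal muscle libraries 12 and 10, with a tissue median of 20.1 CPM, and to 446 CPM in heart library 9, with at most 52.8 CPM in the other heart libraries. None of the 18 markers was at 0 in any of the 4. The fibrinogen sum was 20.0%, 42.3%, 44.1% and 41.0% of Alb in these libraries, in the same order, against 11.03% to 71.3% of Alb in liver.

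Kidney differed from those libraries in Alb and in the fibrinogen sum as a percentage of Alb, but not from all of them in the summed hepatocyte markers. Alb was 2.58 to 39.9 CPM over the kidney libraries and 6.85, 4.76, 4.55 and 3.70 CPM in kidney libraries 8, 10, 11 and 12. The fibrinogen sum was 85.6% of Alb in the lowest kidney library and 682% at the median, so every kidney library was above the highest liver library on that ratio. The 18 hepatocyte markers summed to 216 to 1169 CPM in kidney, with a median of 707 CPM, against 77100 to 162934 CPM in liver. That kidney median was above the sums in heart library 9 (446 CPM) and skeletal muscle library 10 (394 CPM). The highest medians among the 18 in kidney were those of alpha-1 antitrypsin genes, with 233.8 CPM for Serpina1d and 171.7 CPM for Serpina1a, followed by Apob at 62.4 CPM and Ttr at 56.5 CPM. Up to 4 of the 18 markers were at 0 in a kidney library. The urea cycle gene Cps1 was at 0 in 9 kidney libraries and the major urinary protein gene Mup3 in 8.

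**Figure D4:**
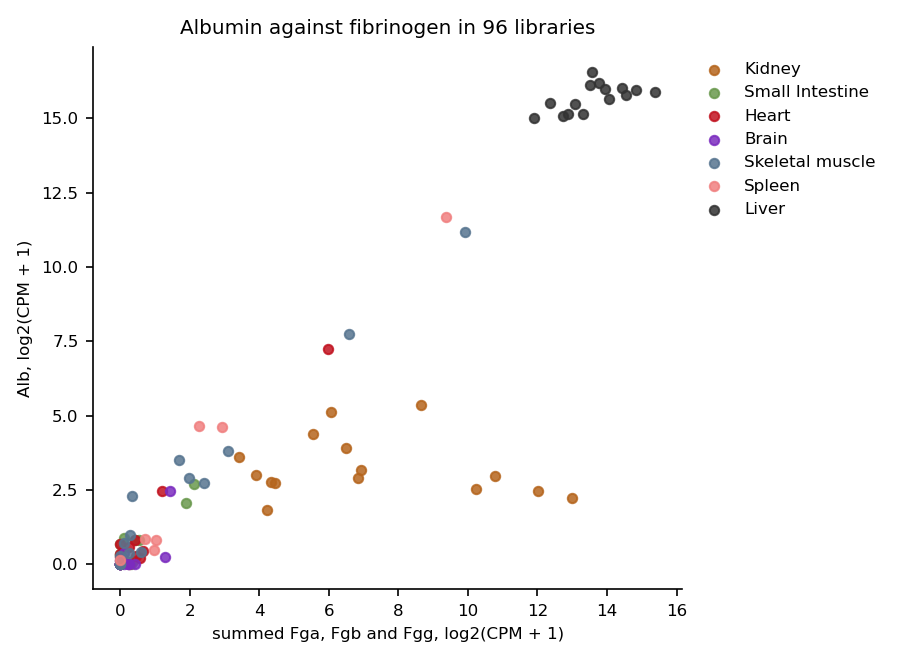
Alb against the summed fibrinogen genes, both as log2(CPM + 1), with 1 point per library coloured by tissue. Liver and the 4 libraries described above of heart, skeletal muscle and spleen lie along a rising band, while the kidney libraries stay at or below 39.9 CPM of Alb over a fibrinogen range of 9.61 to 8221 CPM.

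The neighbours of the fibrinogen genes on chromosome 3 did not share their levels. In the order of the GRCm38.p6 annotation the genes are Rbm46, Lrat, Fgg, Fga, Fgb, Plrg1 and Gm10710. Plrg1, a splicing factor gene next to Fgb, had a median of 18.7 CPM in kidney (9.50 to 26.3) and 19.1 CPM in liver (7.63 to 32.5). Lrat, the lecithin retinol acyltransferase gene next to Fgg, had a median of 3.50 CPM in kidney (1.29 to 7.15) and 7.87 CPM in liver (3.87 to 31.8). Rbm46 and Gm10710 had a median of 0 in both tissues. Both direct neighbours thus varied over a far smaller range in kidney than the 3 chain genes.

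Lists of genes that act with fibrinogen were then compared between kidney and liver with edgeR's quasi-likelihood test over all genes, with 15 libraries a tissue. Of the 14030 genes tested, 29.3% were lower in kidney and 27.9% were higher at an adjusted p under 0.05, with a median log2 fold change of -0.05. Scaling by library totals alone in place of TMM, an alternative chosen after seeing the data, moved the median by 0.53 on the log2 scale and turned these shares into 13.2% lower and 47.0% higher. Directions below are therefore relative to the bulk of genes, and counts that change with this scaling are given. Library totals scale CPM too, so a CPM median and a fold change can point to different sides. The labels do not say that the libraries came from separate animals, so the p-values measure the spread between these libraries.

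Of the 15 clotting factor genes 14 were tested, 11 were lower in kidney and 1 was higher, with a median log2 fold change of -8.74. With library totals alone 9 were lower. F2, the prothrombin gene, had a median of 0.234 CPM in kidney (at most 1.62) and 1586 CPM in liver (758 to 2068), with an adjusted p of 5.44e-20. F9 and F12, the genes of factors IX and XII, had kidney medians of 0 and liver medians of 128.0 and 408.7 CPM. In kidney, fibrinogen chain transcripts thus stood beside almost no transcript of the protease that cuts fibrinogen. F13b, the gene of the factor XIII carrier subunit, had a median of 60.9 CPM in kidney and 56.9 CPM in liver, and Kng2, a kininogen gene, had 225.8 CPM in kidney and 304.0 CPM in liver. Both were called lower in kidney, with log2 fold changes of -0.94 (adjusted p = 0.0214) and -0.92 (adjusted p = 0.000191), and neither was called with library totals alone. F3, the tissue factor gene, was the 1 factor called higher in kidney, at 16.0 CPM in kidney and 2.53 CPM in liver (log2 fold change 2.36, adjusted p = 2.04e-07).

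Among the 12 genes of clotting inhibitors 10 were tested, 7 were lower in kidney and none was higher. Serpinc1, the antithrombin gene, had a median of 7.78 CPM in kidney and 1781 CPM in liver. Proc, the protein C gene, had 149.2 CPM in kidney and 398.3 CPM in liver, and Pros1, the protein S gene, had 21.1 CPM in kidney and 53.5 CPM in liver. Thbd, the thrombomodulin gene, had 30.0 CPM in kidney and 11.7 CPM in liver and did not pass (adjusted p = 0.409). With library totals alone 1 of the 10 was higher.

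Of the 11 genes of fibrinolysis, the breakdown of fibrin, 10 were tested, 4 were lower in kidney and 3 were higher. Over all genes tested 29.3% were lower and 27.9% higher, so these counts set the list little apart. Plau, the urokinase gene, had a median of 316.6 CPM in kidney (180.7 to 538.8) and 0.887 CPM in liver (0.173 to 24.9), with a log2 fold change of 6.71 and an adjusted p of 1.42e-11. Plat, the tissue plasminogen activator gene, had 119.7 CPM in kidney and 1.36 CPM in liver (log2 fold change 3.56, adjusted p = 1.33e-05). Plg, the gene of plasminogen, on which both activators act, had 0.320 CPM in kidney and 1525 CPM in liver. Serpinf2, the antiplasmin gene, had 205.6 CPM in kidney and 541.5 CPM in liver (log2 fold change -2.05). Activator transcripts were thus on the kidney side and those of the proenzyme on the liver side.

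The 17 relatives that carry a fibrinogen-like domain showed no common direction. Of 13 tested, 4 were lower in kidney and 5 were higher, beside 29.3% lower and 27.9% higher over all genes tested. Fgl1, a hepatocyte-secreted relative, had a median of 1.17 CPM in kidney and 329.5 CPM in liver. Angptl7 had 6.35 CPM in kidney (0.604 to 317.9) and 0.209 CPM in liver, with a log2 fold change of 6.87 (adjusted p = 7.93e-07). Angptl4 had 141.6 CPM in kidney and 99.0 CPM in liver and did not pass (adjusted p = 0.733).

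All 13 genes of a list of chaperone and secretion genes, which is not particular to fibrinogen, were tested and lower in kidney, with a median log2 fold change of -1.49. With library totals alone 12 were lower. P4hb, a protein disulphide isomerase gene, had a median of 541.5 CPM in kidney and 1198 CPM in liver. Hspa5, the gene of the endoplasmic reticulum chaperone BiP, had 302.5 CPM in kidney and 798.5 CPM in liver. Calr, the calreticulin gene, had 531.8 CPM in kidney and 1089 CPM in liver.

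Of the 12 genes of fibrinogen receptors 11 were tested, 4 were lower in kidney and 2 were higher. The shares over all genes tested were 29.3% and 27.9%. Itgav, the integrin alpha V gene, had 90.6 CPM in kidney and 23.5 CPM in liver (log2 fold change 1.68, adjusted p = 5.96e-10). Icam1, an adhesion receptor that binds fibrinogen, had 36.4 CPM in kidney and 17.8 CPM in liver with an adjusted p of 0.0460, and lost its call with RLE size factors and without the filter on low counts. Itgb1, the integrin beta 1 gene, did not pass (186.2 CPM in kidney, 102.8 CPM in liver, adjusted p = 0.774). With library totals alone 3 were lower and 5 were higher, so the direction of this list depends on the scaling.

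The transcription factor genes that hepatocytes use were only in part low in kidney. Of 15 hepatocyte factor genes, 9 were lower in kidney and 3 were higher, with 3 not called. Hnf4a had 522.8 CPM in kidney and 280.5 CPM in liver and did not pass (adjusted p = 0.533), although it was higher in kidney with library totals alone. Foxa2 and Foxa3 had kidney medians of 0 and liver medians of 28.3 and 55.7 CPM. Cebpa had 49.6 CPM in kidney and 332.6 CPM in liver.

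Of the 20 genes of interleukin-6 signalling 15 were tested, 8 were lower in kidney and none was higher. With library totals alone 4 were lower and 3 were higher, so this list has no direction that holds across scalings. Il6ra, the receptor gene, had 4.89 CPM in kidney and 44.0 CPM in liver (log2 fold change -3.33, adjusted p = 8.38e-09). Il6st, the gene of the shared receptor gp130, had 96.6 CPM in kidney and 96.8 CPM in liver, with a log2 fold change of -0.51 that turned to 0.07 with library totals alone. Stat3 had 108.4 CPM in kidney and 104.7 CPM in liver and did not pass (adjusted p = 0.265). Of the 26 other acute phase genes, 25 were lower in kidney and Cd14, the gene of a coreceptor for bacterial lipopolysaccharide, was not called. Hpx, the hemopexin gene, had 0.788 CPM in kidney and 5236 CPM in liver, and Cp, the ceruloplasmin gene, had 44.9 CPM in kidney and 1246 CPM in liver.

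The cell type markers followed the tissue labels. All 14 proximal tubule markers and all 11 distal nephron markers were higher in kidney, as were 5 of 6 podocyte markers, with 1 podocyte marker lower that was not called with library totals alone, and all 18 hepatocyte markers were lower. Of the leukocyte markers 7 of 10 were tested and were lower in kidney (5 with library totals alone), and of the platelet markers 2 of 6 were tested and 1, Pf4, was lower, while with library totals alone 1 was lower and 1 was higher. Of the 25 kidney injury genes 23 were tested, with 8 lower in kidney and 6 higher (6 and 7 with library totals alone). With TMM these counts lay near the 29.3% lower and 27.9% higher over all genes tested, so they say little about the list. Spp1, the osteopontin gene, had 892 CPM in kidney and 97.6 CPM in liver (log2 fold change 4.10, adjusted p = 2.19e-07), and Clu, the clusterin gene, had 201.0 CPM in kidney and 1982 CPM in liver (log2 fold change -2.88, adjusted p = 1.56e-07).

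The 3 genes moved together within each tissue. Over the 15 kidney libraries the Pearson r of log2(CPM + 1) was 0.99 between Fga and Fgg, 0.94 between Fgb and Fgg and 0.90 between Fga and Fgb. Over the 15 liver libraries the same pairs had r of 0.97, 0.95 and 0.89. Without the 2 libraries farthest from the median score, kidney libraries 11 and 12 and liver libraries 12 and 13, the kidney pairs had r of 0.98, 0.88 and 0.80 and the liver pairs 0.94, 0.93 and 0.82. These correlations, and those that follow, are a description with no p, since all points share their library and its depth.

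The genes most like the fibrinogen score in kidney included 2 of the other acute phase genes, Lrg1 and Cd14, and the fibrinogen receptor Icam1. Among 10968 genes with a kidney median of at least 5 CPM, the 10 highest r belonged to Ypel2 (0.97), Lrg1, Flot1, Il4ra and Mapkapk2 (all 0.95), Icam1, Hip1r and Mgst1 (all 0.94), and Cd14 and Tacc2 (0.94 and 0.93). Lrg1, an acute phase glycoprotein gene, was 3.72 CPM at the lowest, 10.8 CPM at the median and 546.3 CPM at the highest. Its 3 highest values, 546.3, 272.0 and 123.9 CPM, were in kidney libraries 11, 12 and 8, the 3 libraries with the most Fgg. Without kidney libraries 11 and 12 the r of Lrg1 was 0.91, and those of the other 9 were 0.86 to 0.95.

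By list, likeness in kidney was set beside all genes compared, whose median r was 0.26 and of which 7.53% had r of 0.7 or more. Of the other acute phase genes 12 of 26 were high enough to compare, with a median r of 0.78, and 7 of them had r of 0.7 or more. Lcn2, the lipocalin gene, had r of 0.91, Serpina3n, a serpin gene, 0.92, and Cp 0.80. Saa1, which encodes serum amyloid A and was too low at the median to be ranked, reached 176.4 CPM in kidney library 12 and 51.7 CPM in kidney library 11. Of the interleukin-6 signalling genes 13 of 20 were compared, with a median r of 0.74, and 7 had r of 0.7 or more. These included Cebpd (0.92), Stat3 (0.91), the feedback inhibitor Socs3 (0.90), Pim1 (0.85) and Cebpb (0.80). Stat3 was 466.6 and 404.4 CPM in kidney libraries 12 and 11 and at most 191.5 CPM in the others. Il6 itself had a kidney median of 0.0874 CPM, with 7.01 and 5.45 CPM in kidney libraries 11 and 8 and 0.0904 CPM in library 12.

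Of the kidney injury genes 17 of 25 were compared, with a median r of 0.68, and 7 had r of 0.7 or more. Among these, Lcn2 is also in the acute phase list and Socs3 in the interleukin-6 list, so both were counted there too. Spp1 had r of 0.91, with 13969, 9099 and 7681 CPM in kidney libraries 11, 12 and 8 and at most 2770 CPM in the others. Havcr1, the gene of kidney injury molecule 1, had r of 0.68. It was at 155.7 CPM in kidney library 8, 53.1 CPM in library 11 and 16.8 CPM in library 12. The next was kidney library 4 at 15.8 CPM, where the fibrinogen sum was only 19.1 CPM. Kidney library 10 departed from the other 3 with high fibrinogen. It had 716.1 CPM of Fga beside 30.5 CPM of Lcn2, 892 CPM of Spp1 and 9.21 CPM of Havcr1, the first 2 near or at the kidney medians of 16.9 and 892 CPM.

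The proximal tubule markers ran the other way. All 14 were compared, with a median r of -0.45, and 3 had r of -0.7 or less, against 1.71% of all genes compared. These were Miox, the myo-inositol oxygenase gene (-0.89), and the transporter genes Slc34a1 (-0.81) and Slc22a8 (-0.81). Slc34a1 was lowest in kidney libraries 11 and 12, at 635.6 and 1546 CPM, with a kidney median of 3574 CPM. Kap was the only proximal tubule marker recomputed without kidney libraries 11 and 12, and its r went from -0.62 to -0.30. Of the 9 hepatocyte markers high enough to compare, 1 had r of 0.7 or more, which was Apoc3, the apolipoprotein C-III gene (0.77). Alb had r of -0.19, and the hepatocyte factor gene Hnf4a 0.13. The 11 distal nephron markers had a median r of -0.02, the 6 podocyte markers 0.42 and the 3 leukocyte markers high enough to compare -0.09, none of them with a member at 0.7 or more. Of the platelet markers only Itga2b could be compared, with r of -0.58. None of the 13 chaperone genes had r of 0.7 or more in kidney, and their median was 0.18.

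**Figure D5:**
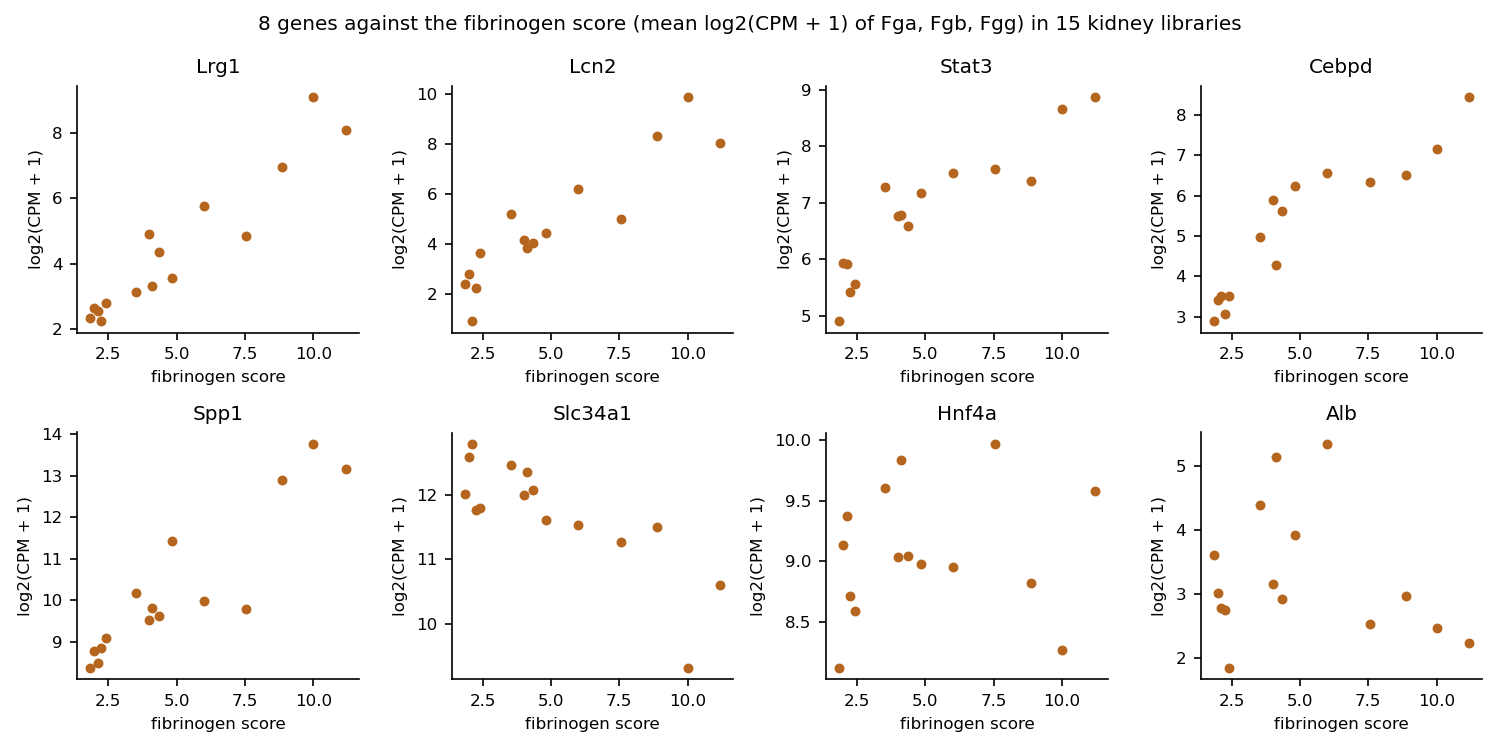
Level of 8 genes, as log2(CPM + 1), against the fibrinogen score in the 15 kidney libraries, with 1 point per library. Lrg1, Lcn2, Stat3, Cebpd and Spp1 rise with the score (r of 0.91 to 0.95), Slc34a1 falls (r of -0.81), and Hnf4a and Alb show little relation (r of 0.13 and -0.19).

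In liver the most similar genes included 4 of the other acute phase genes, Serpina3m, Serpina3n, Itih4 and Steap4. Among 9386 genes compared, the 10 highest r belonged to Serpina3m (0.94), Kng2 (0.92), Serpina3n, Slc39a1 and Ahsg (all 0.90), Grn and Itih4 (both 0.89), and Steap4, Flot1 and Ssr3 (all 0.88). Serpina3n was 77.9 CPM at the lowest, 435.1 CPM at the median and 24286 CPM at the highest. Flot1, a membrane scaffold gene, was the 1 gene among the 10 highest of both tissues. Without liver libraries 12 and 13 the r of these 10 was 0.77 to 0.89.

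Of the 26 other acute phase genes 16 had r of 0.7 or more in liver, with a median r of 0.73, against 2.01% and a median of -0.01 over all genes compared. Hpx had r of 0.85, Hp, the haptoglobin gene, 0.77, Saa2 0.77 and Lcn2 0.80. The list was thus close to the fibrinogen score in both tissues. The chaperone genes had a median r of 0.67 in liver, with 3 of 13 at 0.7 or more, which were Dnajc3 (0.76), Hspa5 (0.72) and Pdia6 (0.72). The interleukin-6 signalling genes had a median r of 0.15 in liver, with 2 of 14 at 0.7 or more, Cebpd (0.81) and Stat3 (0.80). Whether the likeness of a list differed between the tissues was not tested.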

How the data were processed

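The authors deposited gene-level estimated counts, treated as estimates because 26.8% of the nonzero entries are not whole within 1e-06. They also deposited normalised values, taken as a signal and used only for an alternative. Per the submitters' processing notes the build was GRCm39 and DESeq2 was used. The aligner, the counter and its strand setting are not stated in these sources, so genes that overlap others are uncertain.

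Libraries were grouped by the tissue in the column name. The members and all gene lists were chosen with earlier results of these data known. CPM is the estimated count per 1000000 of its library's total. Named genes are, of each list, the 3 with the highest kidney median and the 3 with the largest called fold change, the 10 most like the fibrinogen score in each tissue, and cell type markers. Other list members named were chosen after their values were seen. Some genes under this rule, and 1 promoter motif, are not reported here. Likeness is the Pearson r of log2(CPM + 1) with the mean over Fga, Fgb and Fgg, among genes with a median of at least 5 CPM, ranked without genes that are sex-linked, mitochondrially encoded or only predicted.

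Kidney and liver were compared with edgeR 4.0.16 in R 4.3.3 (quasi-likelihood test, TMM, filterByExpr, Benjamini-Hochberg adjusted p under 0.05) on estimated counts rounded to whole numbers, and with DESeq2 1.42.0 as an alternative. The fit was tested on simulated data. Library totals were 6624474 to 17882603, so 3 counts are 0.168 to 0.453 CPM. Gene lengths are from GENCODE and promoters from RefSeq, both GRCm38. The remaining work was done in Python 3.11.15 (matplotlib 3.10.9, scipy 1.17.1, numpy 2.4.6 and pandas 2.3.3).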

Additional observations from a re-analysis of the deposited data

Results flagged for a closer look

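In spleen, the tissue with 7 libraries, library 2 stood apart from the other 6 for each chain gene. It had 241.474 CPM of Fga, 221.183 CPM of Fgb, 201.135 CPM of Fgg and 663.792 CPM of the 3 summed. The next highest spleen libraries had 1.86, 1.16, 3.56 and 6.58 CPM. The gap to the next library, divided by the range of the group, was 0.992 for Fga, 0.995 for Fgb, 0.982 for Fgg and 0.990 for the sum, above the critical value of 0.568. About 1 in 20 groups of normally distributed values would pass that limit by chance. The other spleen libraries had low or no counts of these genes, so that rate cannot be relied on here. The ratios therefore describe the gap only, and the 4 values share their library. Spleen library 2 also had 3324 CPM of Alb, and its hepatocyte markers summed to 6525 CPM. Kidney, liver and the other tissues have more than 10 libraries and were not screened this way.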

How the results depend on the processing

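No paired analysis was possible because the columns carry no replicate number or animal that links a kidney library to a liver library. Median levels of the 3 genes in kidney and liver moved by less than 1 SD under each alternative scaling. These were TMM scaling over all tissues or within a tissue, leaving out mitochondrially encoded genes, and the authors' normalised values. In kidney 1 SD is a loose limit, since the sum had an SD of 2268 CPM at a median of 88.8 CPM. TMM factors over all tissues were 0.907 to 1.62 in kidney and 0.505 to 1.02 in liver. That scaling thus mostly lowers kidney levels and raises liver levels. Leaving out each library in turn gave a median sum of 77.3 to 100.6 CPM in kidney and 11916 to 13094 CPM in liver, a median Fgb share of 4.02% to 5.57% in kidney and 37.0% to 39.1% in liver, and a median ratio of Fga to Fgg of 1.68 to 2.07 in kidney and 0.961 to 1.01 in liver. Per transcript length the median Fgb share in liver was 23.6%. At a level of 5 CPM in place of 1 CPM, 6 and not 10 kidney libraries had Fgb. Without the filter on low counts, 6391 genes were lower in kidney and 5911 higher, over 31953 genes tested. With library totals alone, chosen after seeing the data, 1857 genes were lower and 6600 higher, and Il6st turned to a log2 fold change of 0.0694. DESeq2 and RLE size factors kept both counts within 1.5 times. Of the 10 genes most like fibrinogen in kidney, 4 remained with Spearman's rho and 6 with TMM scaling within kidney, and of those in liver 6 remained with Spearman's rho. The cause of these changes was not tested. Depth limits the Fgb share in the kidney libraries with few counts, such as library 15 with 89 over the 3 genes. Genotype, which the columns do not show, cannot be told apart from other differences between the libraries of a tissue.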

Other observations

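Pou5f1, which encodes the reprogramming factor OCT4, was read in some kidney libraries. It was at 18.5 CPM in kidney library 4, whose fibrinogen sum was 19.1 CPM, and at 9.11, 4.79, 0.424 and 0.165 CPM in kidney libraries 11, 12, 10 and 8, whose sums were 4163, 8221, 1205 and 1751 CPM. Kidney libraries 6, 7 and 13 had 4.88, 3.89 and 2.31 CPM, at fibrinogen sums of 121.5, 112.5 and 17.6 CPM. The kidney library with the most Pou5f1 was not among those with the most fibrinogen, while library 11, next in Pou5f1, had the next to highest sum. A relation between them was not tested. In liver Pou5f1 was highest in library 4, at 198.7 CPM, whose fibrinogen sum of 5220 CPM was the next to lowest of the 15. The next highest Pou5f1 values in liver, 83.4, 63.4 and 43.6 CPM, were in libraries 11, 10 and 12, whose fibrinogen sums of 29392, 23766 and 42971 CPM were the 3 highest of that tissue. High Pou5f1 in liver was thus found at both ends of the fibrinogen range.

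Small intestine had transcripts of some apolipoprotein genes of the hepatocyte marker list, with almost no fibrinogen. The 18 markers summed there to a median of 7397 CPM and to 24375 CPM in the highest library, small intestine library 13. In that library Apoa1 was at 20141 CPM and 7 of the 18 were at 0. Apoa2 was at most 5.74 CPM in any small intestine library. The fibrinogen sum was at most 3.33 CPM in any small intestine library.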
